A study of Homo sapiens with 12 samples.

Results

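MALAT1, NEAT1, SFPQ, NONO and PSPC1 were examined as the 2 abundant nuclear long noncoding RNAs of human chromosome 11 and the 3 proteins that build the core of the paraspeckle. These 5 genes were 5 of 60612 named genes in the count table, and all 5 were among the 11803 genes with enough reads to be tested. MALAT1 and NEAT1 were chosen by their measured levels and their differences between the treatment groups of these same libraries, and the 3 protein genes were added for their function with results already known. The values of the 5 genes are therefore given as a description, with standard errors and without a test. CAMA-1 is an oestrogen receptor-positive human luminal breast cancer cell line. Cells received DMSO vehicle, abemaciclib at 100 nM, fulvestrant at 5 nM, or abemaciclib and fulvestrant together (the combination, for which the labels restate no dose), and RNA was collected after 5 days of treatment. Abemaciclib inhibits the kinases CDK4 and CDK6, and fulvestrant is an oestrogen receptor antagonist that leads to loss of the receptor. All 12 libraries came from the same wild-type line, with 3 biological replicates in each of the 4 groups, so differences describe 1 line in culture.

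MALAT1 is a long noncoding RNA that gathers in nuclear speckles, the bodies that store splicing factors. NEAT1 is the architectural RNA of paraspeckles: it is made as a short polyadenylated form and as a long form, and the long form holds the body together. SFPQ, NONO and PSPC1 belong to one family of RNA- and DNA-binding proteins that pair with each other and coat NEAT1. SFPQ and NONO are needed for paraspeckles to form and to keep the long form of NEAT1 stable, whereas PSPC1 is a marker of the body that is not essential for it. RNase P cuts the 3′ ends of MALAT1 and of long NEAT1, which then end in a stretch of triple helix in place of a poly(A) tail, and the released tail is a small transfer RNA-like molecule.

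In the GENCODE v44 annotation of GRCh38, NEAT1 lies on the plus strand at chr11:65422774-65445540 and MALAT1 on the same strand at chr11:65497640-65508073, with 52099 bases between them. SFPQ lies on the minus strand at chr1:35176378-35193446, NONO on the plus strand at chrX:71254814-71301522 and PSPC1 on the minus strand at chr13:19674752-19783019. Libraries were primed on poly(A), so the place where MALAT1 can be primed bears on what its counts mean. The longest run of A in the MALAT1 gene held 13 bases, against 8 in the next longest, and lay 6 bases before an annotated small RNA of 57 bases at chr11:65506117-65506173. The hg38 sequence chr11:65506008-65506173 (plus strand) is shown from the T-rich stretches that form the triple helix in the RNA to the end of that small RNA, with the A run in capitals.
MALAT1 3′ region: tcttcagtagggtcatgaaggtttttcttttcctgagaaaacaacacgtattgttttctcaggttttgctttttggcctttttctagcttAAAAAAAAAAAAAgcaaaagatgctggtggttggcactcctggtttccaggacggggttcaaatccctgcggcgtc
The run started 8458 bases into the 10434-base gene. NEAT1 has an equivalent layout, in that an annotated small RNA of 58 bases (chr11:65445541-65445598) starts at the base that follows the end of the gene. The table holds 1 count per gene, so short and long NEAT1 could not be told apart, and primed sites inside MALAT1 could not be resolved.

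RefSeq promoter windows (GRCh38.p14) were found for 3 of the 5 genes (MALAT1, NONO and PSPC1), and the 250 bases before a transcript start were searched on both strands for CCAAT (the NF-Y box), TTTGAA (the CHR element of cell cycle genes), TTTNNCGC (an E2F site), TATAAA (the TATA box) and the oestrogen response element. The 3 windows below show the start regions of MALAT1 and of both paraspeckle protein genes with an entry, with each match in capitals. The MALAT1 window is chr11:65498795-65499044 (plus strand), the inner of 2 windows listed for the gene; the NONO window is chrX:71283385-71283634 (plus strand) and lies inside the longer GENCODE span of that gene; the PSPC1 window is chr13:19782946-19783195 (minus strand).
MALAT1: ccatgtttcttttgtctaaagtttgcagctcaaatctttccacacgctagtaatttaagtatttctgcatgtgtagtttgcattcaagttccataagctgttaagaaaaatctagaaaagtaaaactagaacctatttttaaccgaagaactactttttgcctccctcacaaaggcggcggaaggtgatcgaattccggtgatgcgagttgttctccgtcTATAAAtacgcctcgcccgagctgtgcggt
NONO: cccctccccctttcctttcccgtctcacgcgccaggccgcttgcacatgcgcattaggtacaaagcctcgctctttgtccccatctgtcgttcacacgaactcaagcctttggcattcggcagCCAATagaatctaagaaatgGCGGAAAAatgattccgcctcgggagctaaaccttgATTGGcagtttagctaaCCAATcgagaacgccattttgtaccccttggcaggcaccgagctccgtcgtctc
PSPC1: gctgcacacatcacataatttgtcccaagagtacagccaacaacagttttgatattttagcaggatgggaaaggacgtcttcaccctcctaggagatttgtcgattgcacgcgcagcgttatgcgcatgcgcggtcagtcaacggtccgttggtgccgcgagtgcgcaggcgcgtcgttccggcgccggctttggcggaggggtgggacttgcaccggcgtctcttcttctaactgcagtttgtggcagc
The MALAT1 window held a TATA box 30 to 25 bases before the start, a match found in 10.7% of 35116 windows of the same length. The outer MALAT1 window (chr11:65497488-65497737) held none of the 5 motifs and had a GC content of 75.2%, against 41.2% in the inner window and a median of 58% over all windows. The NONO window held CCAAT at 3 places, a motif present in 32% of windows, and 1 E2F match, present in 5.92% of windows. The PSPC1 window held no match, and neither TTTGAA (13.3% of windows) nor the oestrogen response element (0.0399% of windows) was found in any of these windows. A match is a run of letters only and says nothing about binding.

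Library totals ran from 3299119 to 5164667 reads. MKI67, a proliferation marker, averaged 511 CPM with DMSO, 54.2 CPM with abemaciclib, 43.7 CPM with fulvestrant and 2.21 CPM with the combination, and TFF1, an oestrogen receptor target, averaged 60.5, 382, 1.46 and 2.32 CPM in the same order. CPM (counts scaled to the reads on all tested genes, with TMM factors) come from a 3′ library, whose counts do not grow with gene length. Each luminal marker (ESR1, FOXA1, GATA3, KRT8, KRT18, KRT19 and EPCAM) had at least 313 reads in every library. CD3E, COL1A2 and PECAM1 had 0 reads, KRT5, KRT14, PTPRC and VWF at most 4, and COL1A1 48 to 102. Transcripts of the mitochondrial genome took 12.0 to 12.5% of reads with DMSO and 15.6 to 20.6% in the other groups. With these transcripts left out of library sizes, none of the differences of the 5 genes from DMSO changed sign. CPM are shares of all RNA in bulk cultures, so fewer cells that carry a transcript and less of it per cell cannot be told apart. Each library was most like another library of its own group over all tested genes, and fulvestrant replicate 3 stood furthest from its group: the chi-square per degree of freedom against replicate 2 was 15.3, where the lowest value of any replicate pair was 1.88.

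**Figure D1:**
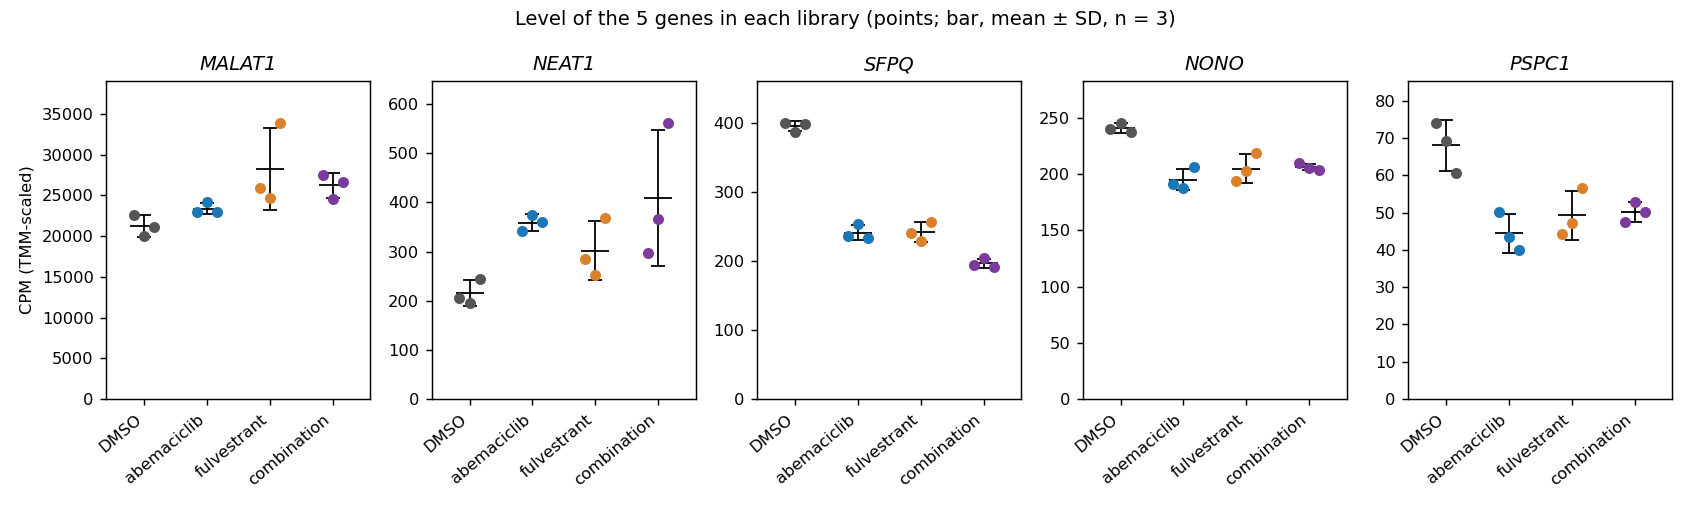
Each panel plots CPM (vertical axis, starting at 0, TMM-scaled) of 1 gene in the 4 treatment groups (horizontal axis); points are libraries in replicate order and bars are the mean ± SD of 3. With TMM scaling, MALAT1 and NEAT1 libraries with any drug sit above every DMSO library, and SFPQ, NONO and PSPC1 libraries with any drug sit below.

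MALAT1 had the second highest read count of any gene in all 12 libraries. It took 2.04% of reads in its lowest library, DMSO replicate 2 (95% Wilson interval 2.03 to 2.05%), and 3.39% in its highest, fulvestrant replicate 3 (3.37 to 3.41%); such intervals cover counting error only. MALAT1 measured 22632, 20025 and 21095 CPM in the 3 DMSO libraries, with a mean of 21251 ± 1310 CPM (SD, n = 3). With abemaciclib it measured 22972, 24202 and 23000 CPM (mean 23391 ± 702). With fulvestrant it measured 25957, 24654 and 33952 CPM (mean 28188 ± 5035). With the combination it measured 27549, 24555 and 26675 CPM (mean 26260 ± 1540). All 9 drug-treated libraries were above all 3 DMSO libraries, and the order of group means was DMSO, abemaciclib, combination, fulvestrant. The combination and fulvestrant groups overlapped, while each other pair of neighbours in that order did not. The step from DMSO to abemaciclib was narrow, since the highest DMSO library and the lowest abemaciclib library were 22632 and 22972 CPM. That separation rested on the TMM scaling. As shares of all reads, DMSO replicate 1 (2.31%) was above abemaciclib replicates 1 and 3 (2.24% and 2.27%).

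As log2 fold changes from the fit over all genes, MALAT1 was higher than DMSO by 0.14 ± 0.09 (SE) with abemaciclib, 0.41 ± 0.09 with fulvestrant and 0.31 ± 0.09 with the combination. The fulvestrant value was 0.25 without fulvestrant replicate 3. The combination was 0.17 ± 0.09 above abemaciclib alone, with no overlap of libraries. Against fulvestrant alone it was −0.10 ± 0.09, and this difference changed sign to 0.05 without fulvestrant replicate 3. MALAT1 shares its position with antisense transcripts, and the strand setting of the counting was not stated, so sense and antisense reads cannot be told apart.

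NEAT1 had far fewer reads (692 to 2897 per library) and a wider spread. It measured 205, 194 and 245 CPM with DMSO (mean 215 ± 26.7, n = 3) and 341, 375 and 360 CPM with abemaciclib (mean 359 ± 16.9). With fulvestrant it measured 285, 251 and 368 CPM (mean 302 ± 60.0), and with the combination 297, 367 and 563 CPM (mean 409 ± 138). Every drug-treated library was again above every DMSO library, but the lowest fulvestrant library (251 CPM) was close to the highest DMSO library (245 CPM). As shares of all reads, without TMM scaling, their order was reversed. Fulvestrant replicate 2 held 0.0238% and DMSO replicate 3 held 0.0250%. The fulvestrant, abemaciclib and combination groups overlapped with their neighbours in the order of means. Combination replicate 3 was the highest of all libraries, and the coefficient of variation in that group was 33.7%, against 4.71% with abemaciclib.

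NEAT1 was higher than DMSO by 0.74 ± 0.24 on the log2 scale with abemaciclib, 0.49 ± 0.24 with fulvestrant and 0.93 ± 0.24 with the combination. Without combination replicate 3 the last value was 0.63, and without fulvestrant replicate 3 the fulvestrant value was 0.32. The combination differed from abemaciclib alone by 0.19 ± 0.23, which became −0.11 without combination replicate 3. Its difference from fulvestrant alone, 0.44 ± 0.23, became 0.13 without that library. Over all alternative fits, the differences from DMSO ranged from 0.67 to 0.85 with abemaciclib, 0.32 to 0.61 with fulvestrant and 0.63 to 1.12 with the combination.

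SFPQ, which encodes a paraspeckle protein that binds NEAT1 and also acts in splicing and transcription, was lower in the groups where both RNAs were higher. Counts for the protein genes are of their RNA, and these libraries do not measure protein. It measured 401, 387 and 398 CPM with DMSO (mean 395 ± 6.95, n = 3), and 236, 253 and 233 CPM with abemaciclib (mean 241 ± 10.8). With fulvestrant it measured 240, 228 and 257 CPM (mean 242 ± 14.1), and with the combination 195, 204 and 192 CPM (mean 197 ± 6.45). Both single drugs gave nearly the same level and overlapped, and the combination lay below both without overlap. The log2 fold change against DMSO was −0.71 ± 0.07 with abemaciclib, −0.71 ± 0.07 with fulvestrant and −1.01 ± 0.07 with the combination. The combination was −0.29 ± 0.07 against abemaciclib and −0.30 ± 0.08 against fulvestrant, and SFPQ was the only 1 of the 5 genes whose combination libraries were apart from both single-drug groups.

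NONO, which encodes the usual partner of SFPQ, showed the smallest difference from DMSO of the 3 protein genes. It measured 240, 246 and 238 CPM with DMSO (mean 241 ± 4.38, n = 3), 192, 188 and 206 CPM with abemaciclib (mean 195 ± 9.59), 194, 203 and 219 CPM with fulvestrant (mean 205 ± 12.7), and 210, 206 and 204 CPM with the combination (mean 207 ± 2.94). The 3 drug groups overlapped and all lay below DMSO. Log2 fold changes against DMSO were −0.31 ± 0.08, −0.24 ± 0.08 and −0.22 ± 0.08 in that order. The combination differed from abemaciclib by 0.08 ± 0.08 and from fulvestrant by 0.01 ± 0.08.

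PSPC1, the third family member, had the fewest reads (158 to 364 per library). It measured 74.2, 69.2 and 60.8 CPM with DMSO (mean 68.0 ± 6.79, n = 3) and 50.2, 43.5 and 39.9 CPM with abemaciclib (mean 44.5 ± 5.23). With fulvestrant it measured 44.2, 47.1 and 56.7 CPM (mean 49.4 ± 6.56), and with the combination 47.4, 52.9 and 50.1 CPM (mean 50.1 ± 2.77). As for NONO, the drug groups overlapped with each other and none overlapped with DMSO. Log2 fold changes against DMSO were −0.60 ± 0.12, −0.45 ± 0.12 and −0.43 ± 0.11, and the combination differed from abemaciclib by 0.17 ± 0.12 and from fulvestrant by 0.02 ± 0.12. Processed copies of these genes could have taken few reads, since NONOP2 held 6, PSPC1P1 held 1 and PSPC1P2 held 0 over all libraries.

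**Figure D2:**
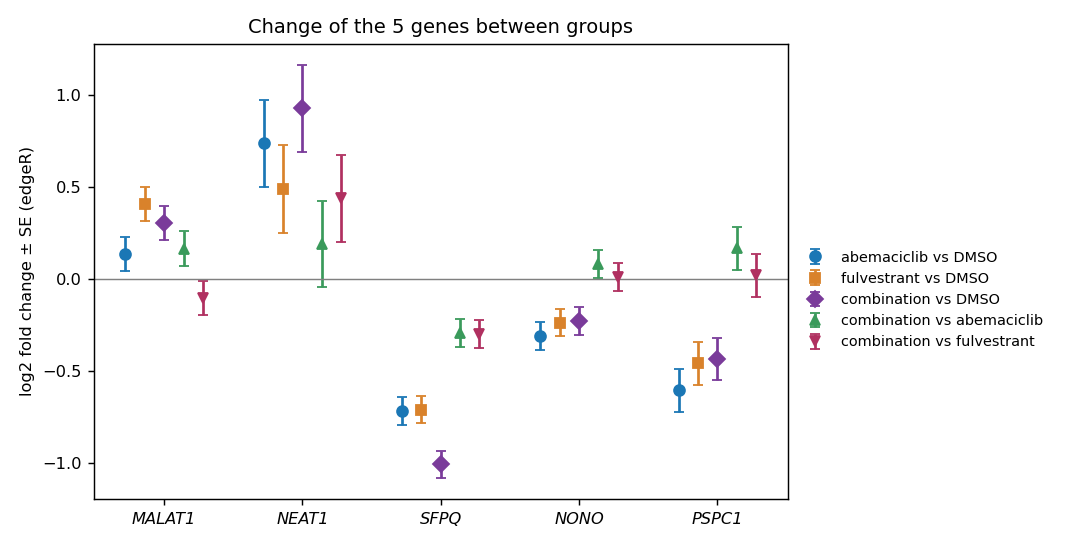
Points are log2 fold changes (vertical axis) of the 5 genes (horizontal axis) in 5 comparisons, with bars of 1 SE from the edgeR fit over all genes. MALAT1 and NEAT1 lie above 0 and the 3 protein genes below 0 in all 3 comparisons with DMSO, and SFPQ alone lies well below 0 in both comparisons of the combination with a single drug.

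Against DMSO, then, 2 of the 5 genes were higher and 3 lower without overlap of libraries under each treatment on TMM-scaled CPM. Over all 11803 genes, 27% were higher and 27.2% lower without overlap for abemaciclib, 26.7% and 28.1% for fulvestrant, and 31.4% and 30.7% for the combination. For the combination against abemaciclib, 1 of the 5 was higher (MALAT1) and 1 lower (SFPQ), where 23.8% and 24.7% of all genes were. Against fulvestrant, 1 was lower (SFPQ) and none higher, where 7.44% and 7.13% of all genes were. The members were chosen on these contrasts, so nothing is read from these counts. The comparisons with DMSO share the same 3 DMSO libraries. Without TMM scaling, as shares of all reads, MALAT1 with abemaciclib and NEAT1 with fulvestrant overlapped DMSO.

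The interaction, the effect of abemaciclib in the presence of fulvestrant minus its effect alone, was −0.24 ± 0.13 for MALAT1 and −0.30 ± 0.33 for NEAT1 on the log2 scale. Leaving out fulvestrant replicate 3 took the MALAT1 value to −0.09, and leaving out combination replicate 3 took the NEAT1 value to −0.61. It was 0.42 ± 0.11 for SFPQ, 0.32 ± 0.11 for NONO and 0.62 ± 0.17 for PSPC1, all of the sign opposite to their differences from DMSO. For PSPC1 the means were 68.0 CPM with DMSO and 44.5 CPM with abemaciclib, but 49.4 CPM with fulvestrant and 50.1 CPM with the combination.

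**Figure D3:**
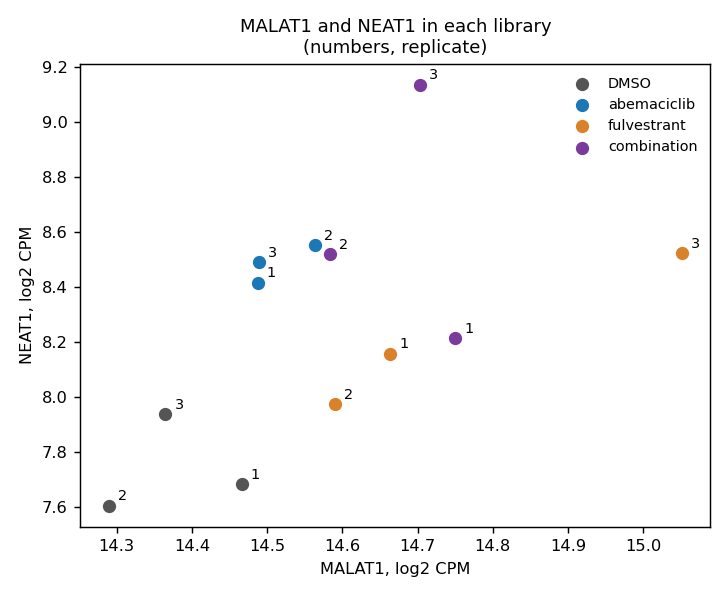
Each point is a library, with log2 CPM of MALAT1 on the horizontal and of NEAT1 on the vertical axis, coloured by group and marked with its replicate number. DMSO libraries sit at the lower left, fulvestrant replicate 3 is furthest right and combination replicate 3 is highest, and these are not the same library.

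MALAT1 and NEAT1 varied together only in part. Over the 12 libraries, which fall into 4 groups of 3, their Pearson correlation of log2 CPM was 0.53, and the library with the most MALAT1 was not the library with the most NEAT1. The replicates had the same order for both RNAs with abemaciclib and with fulvestrant, but not with DMSO or the combination. SFPQ was correlated with NONO at 0.79 and with PSPC1 at 0.77, and NONO with PSPC1 at 0.86. NEAT1 was correlated with SFPQ at −0.76, with NONO at −0.64 and with PSPC1 at −0.58. All points share the library and the group, so these values describe group differences as much as libraries.

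Among 8471 genes with a mean of at least 10 CPM, the 5 whose log2 CPM followed MALAT1 most closely over the 12 libraries were AKAP9 (Pearson r = 0.96), TAX1BP1 (0.94), PAWR (0.94), BOD1L1 (0.92) and SHTN1 (0.91). AKAP9, which encodes a scaffold protein of the Golgi and centrosome, averaged 159, 169, 212 and 209 CPM with DMSO, abemaciclib, fulvestrant and the combination. The 5 closest to NEAT1 were D2HGDH (0.92), PI4KB (0.92), KIFC2 (0.92), SLC35C2 (0.91) and USP34 (0.90). D2HGDH, a mitochondrial dehydrogenase gene, averaged 12.4, 19.9, 17.4 and 22.5 CPM in the same order of groups. Its means rank the groups as those of NEAT1 do, but the genes were picked for this likeness, so that is no separate result.

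Other paraspeckle protein genes were taken as a list of 34, and all 34 were tested. With abemaciclib against DMSO, 5 rose and 15 fell (edgeR adjusted p under 0.05), with a median log2 fold change of −0.26 where all genes had 0.00; 20.5% of all genes rose and 20.7% fell. With fulvestrant, 4 rose and 19 fell (median −0.37), where 25.3% of all genes rose and 25.7% fell. With the combination, 5 rose and 21 fell (median −0.40), where 27.7% rose and 27.5% fell. The share of the list that fell was 44.1%, 55.9% and 61.8% in that order.

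Genes of heterogeneous nuclear ribonucleoproteins, which bind nascent transcripts, were among those that fell. HNRNPH1, a splicing regulator, averaged 593 ± 44.2 CPM with DMSO and 276 ± 6.09 with abemaciclib, 234 ± 20.7 with fulvestrant and 224 ± 32.9 with the combination (SD, n = 3 each). Its log2 fold change with the combination was −1.40 ± 0.09 (edgeR adjusted p = 5.73e-13). HNRNPR averaged 324 CPM with DMSO and 156, 163 and 168 CPM in the 3 drug groups, and fell in each (highest edgeR adjusted p = 1.03e-09). HNRNPA1 averaged 303 CPM with DMSO, then 164, 126 and 123 CPM, with a log2 fold change of −1.30 ± 0.10 for the combination (edgeR adjusted p = 9.34e-12). RBM14, which is needed for paraspeckles to form, fell in all 3 comparisons, with log2 fold changes of −0.83 ± 0.14, −1.07 ± 0.14 and −1.37 ± 0.14 (highest edgeR adjusted p = 1.66e-05).

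Further proteins with a known role in the body are given for that role, named after their values had been seen. HNRNPK favours the long form of NEAT1 by opposing its early polyadenylation, and it averaged 1030 CPM with DMSO and 880, 833 and 855 CPM (highest edgeR adjusted p = 0.0175). The early polyadenylation itself uses CPSF6 and NUDT21. CPSF6 fell in all 3 comparisons (log2 −0.33 ± 0.10, −0.25 ± 0.10 and −0.47 ± 0.10). NUDT21 fell with fulvestrant (−0.64 ± 0.16, edgeR adjusted p = 0.00432) and the combination (−0.77 ± 0.16), and was −0.38 ± 0.16 with abemaciclib (edgeR adjusted p = 0.0677). TARDBP, which encodes TDP-43, was −0.27 ± 0.14, −0.18 ± 0.14 and −0.26 ± 0.14 and did not pass in any of the 3.

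A smaller set rose. ZC3H6, a zinc finger protein gene, averaged 36.5 ± 2.72 CPM with DMSO, 56.2 ± 3.01 with abemaciclib, 87.4 ± 5.15 with fulvestrant and 94.7 ± 12.1 with the combination; its combination value was 1.38 ± 0.11 (edgeR adjusted p = 1.62e-11). CIRBP, a cold-inducible RNA-binding protein gene, averaged 160 ± 13.6, 239 ± 5.54, 310 ± 24.5 and 361 ± 4.83 CPM, and the combination value was 1.17 ± 0.08 (edgeR adjusted p = 1.22e-12). ZNF24, a zinc finger transcription factor gene, rose with fulvestrant by 0.76 ± 0.08 and with the combination by 0.73 ± 0.08. AHDC1 rose with abemaciclib by 0.43 ± 0.15 (edgeR adjusted p = 0.0273), a call that was lost when any of 4 single libraries was left out (highest adjusted p = 0.0835).

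Adding fulvestrant to abemaciclib changed 9 of the 34, with a median of −0.10. Of these 3 went up (8.82% of the list, against 15.9% of all genes). The other 6 went down (17.6% of the list, near the 17.7% of all genes). ZC3H6 (0.75 ± 0.10), CIRBP (0.60 ± 0.08) and ZNF24 (0.40 ± 0.07) rose further. RBM3, another cold-inducible RNA-binding protein gene, fell by 0.59 on the log2 scale with an SE of 0.10 (edgeR adjusted p = 1.97e-05), as did UBAP2L (−0.49 ± 0.08) and RBM14 (−0.54 ± 0.15), the last of which did not pass without combination replicate 3. Adding abemaciclib to fulvestrant changed none of the 34 by edgeR or by DESeq2; 4 had an unadjusted edgeR p under 0.05, where 11.6% of all genes did. Only 0.297% of all genes rose and 1.63% fell in that comparison. Without fulvestrant replicate 3 the count in the list was 3, but the share of all genes in that fit was not computed.

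**Figure D4:**
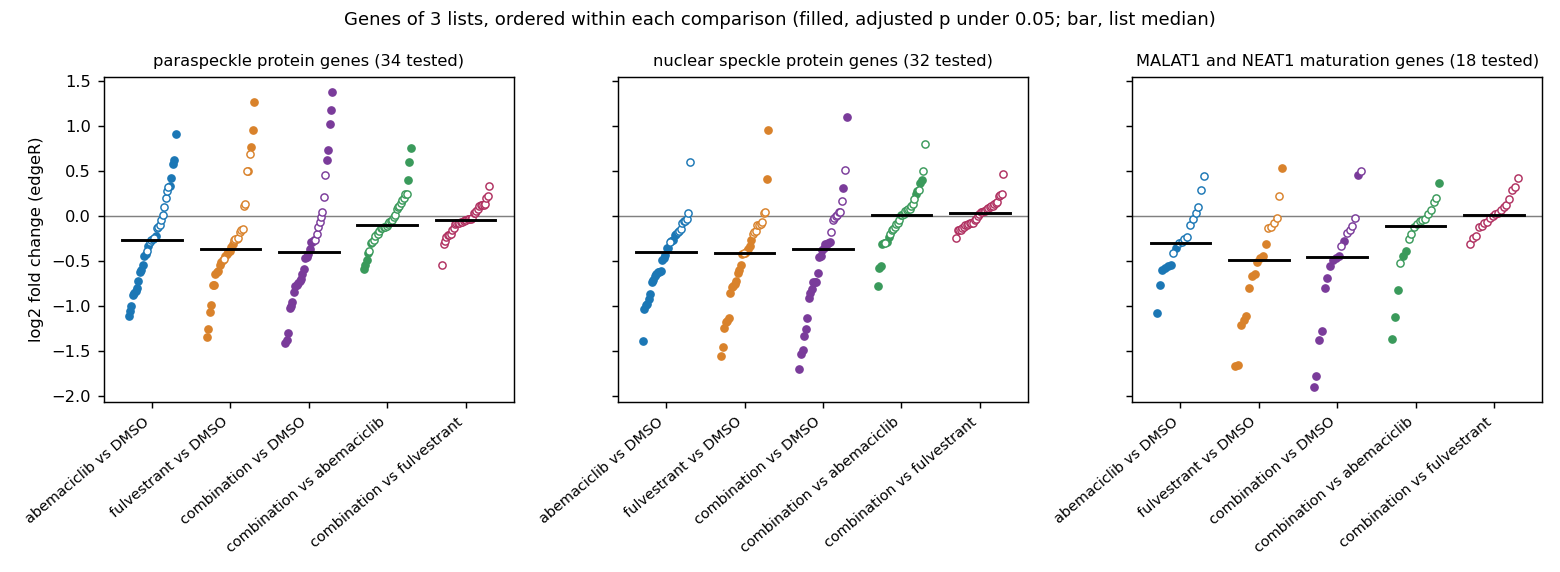
Each point is a gene of the list named above the panel, ordered by its log2 fold change (vertical axis) within each of 5 comparisons (horizontal axis); filled points passed an edgeR adjusted p under 0.05 and black bars are list medians. In the 3 comparisons with DMSO the medians lie between −0.26 and −0.49, and in the comparison of the combination with fulvestrant they lie near 0 and no point is filled.

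Nuclear speckles, where MALAT1 resides, were represented by 33 protein genes, of which 32 were tested. None rose and 22 fell with abemaciclib (median log2 fold change −0.40), 2 rose and 20 fell with fulvestrant (−0.41), and 2 rose and 21 fell with the combination (−0.36). The shares of the list that fell were 68.8%, 62.5% and 65.6% in that order, against 20.7%, 25.7% and 27.5% of all genes, and the shares that rose were 0%, 6.25% and 6.25%, against 20.5%, 25.3% and 27.7%. DESeq2 also called none upwards with abemaciclib, and 1 had an unadjusted edgeR p under 0.05 in that direction. ALYREF, an mRNA export adaptor, averaged 277 ± 9.35 CPM with DMSO and 106 ± 10.1, 94.5 ± 14.7 and 85.5 ± 10.3 CPM in the drug groups, with a combination value of −1.70 ± 0.10 (edgeR adjusted p = 1.3e-13). The serine- and arginine-rich splicing factors SRSF7, SRSF2 and SRSF3 fell in all 3 comparisons (highest edgeR adjusted p = 1.79e-05). SRSF7 averaged 197 CPM with DMSO and 100, 72.1 and 68.1 CPM in the drug groups, and SRSF2 averaged 203 CPM and then 124, 86.3 and 72.6 CPM. TRA2B, a splicing activator, averaged 167 CPM with DMSO and 81.9, 73.8 and 66.4 CPM, and also fell in each.

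The 2 speckle genes that rose with fulvestrant and with the combination were EIF4A3 and CLK1. EIF4A3, a core protein of the exon junction complex, changed by 0.41 ± 0.11 with fulvestrant (edgeR adjusted p = 0.0046). CLK1, a kinase of splicing factors, changed by 0.96 ± 0.27 with fulvestrant (edgeR adjusted p = 0.00384) and 1.10 ± 0.26 with the combination (edgeR adjusted p = 0.000721). CLK1 averaged 4.98, 7.39, 9.43 and 10.3 CPM over the 4 groups. EIF4A3 also passed with the combination (0.31 ± 0.11, edgeR adjusted p = 0.0227), but 3 of the fits that left out 1 library lost that call (highest adjusted p = 0.138). Adding fulvestrant to abemaciclib raised 4 (12.5%) and lowered 7 (21.9%) of the 32, near the 15.9% and 17.7% of all genes; SRSF2 fell by 0.78 on the log2 scale with an SE of 0.12, and DYRK1A, another kinase of splicing factors, rose by 0.39 ± 0.11. Adding abemaciclib to fulvestrant changed none by edgeR or DESeq2, and 1 had an unadjusted edgeR p under 0.05.

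Genes for the maturation of the 2 RNAs (subunits of RNase P, the tRNA 3′ enzymes ELAC2 and TRNT1, the triple helix binder METTL16, and writers and readers of the m6A mark) numbered 19, and 18 were tested. With abemaciclib none rose and 7 fell (median −0.30), with fulvestrant 1 rose and 12 fell (−0.49), and with the combination 1 rose and 11 fell (−0.46). The shares that fell with fulvestrant and the combination were 66.7% and 61.1%, and 20.7%, 25.7% and 27.5% of all genes fell with abemaciclib, fulvestrant and the combination. The shares that rose were 0%, 5.56% and 5.56% in that order, against 20.5%, 25.3% and 27.7%. DESeq2 called none upwards with abemaciclib either, and none had an unadjusted edgeR p under 0.05 in that direction. With the combination the deepest falls were in the RNase P subunits POP1 and RPP40. POP1 averaged 69.3 ± 8.87 CPM with DMSO and 32.6 ± 0.855, 21.6 ± 4.80 and 18.5 ± 1.42 CPM in the drug groups, with a combination value of −1.90 ± 0.14 (edgeR adjusted p = 4.06e-12). RPP40 averaged 26.5 CPM with DMSO, 19.8 with abemaciclib, 8.36 with fulvestrant and 7.64 with the combination, and fell by 1.36 on the log2 scale between abemaciclib and the combination (SE 0.20, edgeR adjusted p = 5.11e-06). RPP25 fell in all 3 comparisons with DMSO, though its abemaciclib call (−0.76 ± 0.25, edgeR adjusted p = 0.0178) was lost when any of 3 libraries was left out. METTL16, which binds the MALAT1 triple helix, was 0.03 ± 0.16 with abemaciclib, −0.45 ± 0.17 with fulvestrant (edgeR adjusted p = 0.0255) and −0.02 ± 0.15 with the combination. METTL14, of the m6A writer complex, rose with fulvestrant (0.53 ± 0.14) and the combination (0.46 ± 0.14), while METTL3, its catalytic partner, fell in both (−1.16 ± 0.32 and −1.38 ± 0.32). The group means were 2.94 to 7.79 CPM for METTL3, 14.2 to 19.9 CPM for METTL16 and 24.4 to 35.2 CPM for METTL14. Adding fulvestrant to abemaciclib raised 1 and lowered 5 of the 18, or 5.56% and 27.8% where 15.9% and 17.7% of all genes passed. The gene raised was METTL14 (0.36 ± 0.14, edgeR adjusted p = 0.0436), and its call was lost in 6 of 17 alternative fits, DESeq2 among them (highest adjusted p = 0.202 over the alternatives). Of those lowered, ELAC2, which trims tRNA 3′ ends, fell by 0.44 (SE 0.11). Adding abemaciclib to fulvestrant changed none by edgeR or DESeq2, with 1 at an unadjusted edgeR p under 0.05.

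The interaction was tested for the genes of these lists. The response to abemaciclib differed in the presence of fulvestrant for 8 paraspeckle genes in the positive and 3 in the negative direction, for 16 and 0 speckle genes and for 4 and 0 maturation genes (22.2% and 0% of that list), where 9.49% of all genes passed in the positive and 11.6% in the negative direction. In the 2 lists with 0, DESeq2 also called 0 and no gene had an unadjusted edgeR p under 0.05 in the negative direction. ALYREF had the largest speckle value, 1.24 ± 0.15 (edgeR adjusted p = 6.68e-07), and HNRNPR the largest paraspeckle value, 1.09 ± 0.13 (edgeR adjusted p = 6.71e-07). ALYREF averaged 277 and 106 CPM without and with abemaciclib alone, and 94.5 and 85.5 CPM in the presence of fulvestrant. ZC3H6 (−0.51 ± 0.15), ZNF24 (−0.36 ± 0.11) and CIRBP (−0.36 ± 0.11) were the 3 negative paraspeckle genes, and each lost its call when raw library totals replaced TMM. With raw totals the median interaction over all genes was 0.0974, against −0.01268 with TMM.

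Long noncoding RNA genes as a class gave a setting for MALAT1 and NEAT1. Of 18571 such symbols in GENCODE v44, 4305 matched the table and 327 others than MALAT1 and NEAT1 were tested; genes named only by an older identifier did not match. With abemaciclib 51 rose and 58 fell (median −0.02), with fulvestrant 95 rose and 57 fell (0.17), and with the combination 113 rose and 59 fell (0.30). The shares that rose were 15.6%, 29.1% and 34.6%, against 20.5%, 25.3% and 27.7% of all genes, and those that fell were 17.7%, 17.4% and 18%, against 20.7%, 25.7% and 27.5%. Against abemaciclib the combination raised 83 and lowered 27 (0.34), or 25.4% and 8.26% where 15.9% and 17.7% of all genes passed. Against fulvestrant it raised 2 and lowered 3 (0.07), or 0.612% and 0.917% where 0.297% and 1.63% of all genes passed. LINC01133 averaged 4.66 CPM with DMSO and 18.7, 37.6 and 29.4 CPM in the drug groups, with a fulvestrant value of 2.97 ± 0.18 (edgeR adjusted p = 1.55e-13). SOCS2-AS1 averaged 2.79, 5.28, 33.3 and 22.7 CPM. Among the genes that fell with fulvestrant and with the combination were SNHG3 and SNHG1, which host small nucleolar RNAs: SNHG3 averaged 31.6 CPM with DMSO and 13.4, 4.52 and 3.38 CPM, and SNHG1 19.8 CPM and then 6.14, 2.42 and 2.28 CPM. Against fulvestrant, the call of DANCR (−0.50 ± 0.13) and that of MAPKAPK5-AS1 (0.53 ± 0.14) were each lost in 8 of 17 alternative fits.

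Genes within 300 kb of MALAT1 or NEAT1 were compared with the 2 RNAs, since both lie in 1 stretch of chromosome 11. Of 64 annotated genes 37 matched the table and 20 were tested. With abemaciclib 7 rose and 5 fell, with fulvestrant 3 rose and 3 fell, and with the combination 6 rose and 4 fell, with medians of 0.22, 0.07 and 0.22. The shares that rose were 35%, 15% and 30%, against 20.5%, 25.3% and 27.7% of all genes, and those that fell were 25%, 15% and 20%, against 20.7%, 25.7% and 27.5%; with fulvestrant both shares were below those of all genes, and with the combination the share that rose was near that of all genes. FRMD8, the nearest tested gene before NEAT1 (chr11:65386621-65413525), averaged 87.1 ± 16.9 CPM with DMSO and 157 ± 3.81 with abemaciclib (0.84 ± 0.13, edgeR adjusted p = 4.85e-05), but 88.3 ± 9.81 with fulvestrant and 101 ± 18.1 with the combination. FAM89B rose in all 3 comparisons with DMSO (0.50 ± 0.10, 1.02 ± 0.10 and 0.87 ± 0.10). POLA2, a subunit of DNA polymerase alpha, averaged 56.4 CPM with DMSO and 20.4, 16.3 and 8.80 CPM in the drug groups, the largest fall of the region (combination −2.67 ± 0.15, edgeR adjusted p = 1e-14). FAM89B overlaps ZNRD2, and KAT5 overlaps RNASEH2C, so reads of these pairs may be split between them.

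Adding fulvestrant to abemaciclib raised 2 and lowered 5 of the 20, where 15.9% and 17.7% of all genes passed: FRMD8 (−0.63 ± 0.13) and CAPN1 (−0.78 ± 0.19) fell back towards their DMSO levels, and KAT5, an acetyltransferase gene, rose by 0.50 ± 0.09. Adding abemaciclib to fulvestrant lowered 2 (10%, against 1.63% of all genes), POLA2 (−0.88 ± 0.17) and RNASEH2C (−0.35 ± 0.09). It raised none by edgeR or DESeq2 (1 at an unadjusted edgeR p under 0.05), where 0.297% of all genes rose. The RNASEH2C call was lost in 4 of 17 alternative fits.

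**Figure D5:**
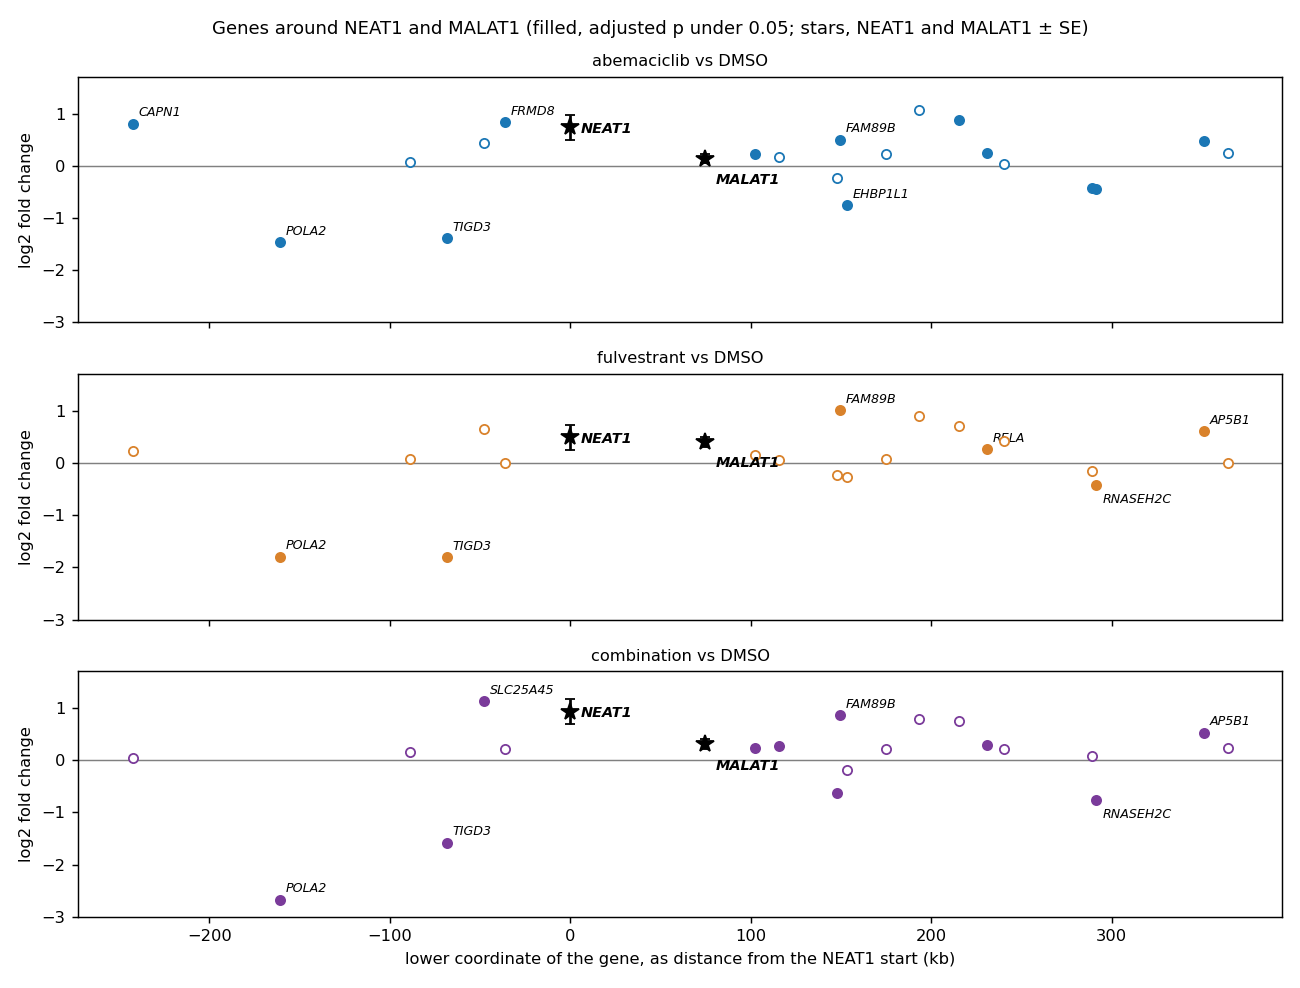
Panels show abemaciclib, fulvestrant and the combination against DMSO; each point is a gene, placed by the distance of its lower coordinate from the NEAT1 start in kb (horizontal axis) and its log2 fold change (vertical axis), and stars are NEAT1 and MALAT1 ± SE. Filled points passed an edgeR adjusted p under 0.05, and up to 3 of them in each direction are labelled; genes that fell lie on both sides of the stars in every panel, with POLA2 lowest in the third, while those that rose lie on both sides with abemaciclib and the combination and only after MALAT1 with fulvestrant.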

How the data were processed

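RNA from 12 CAMA-1 cultures was made into 3′ libraries with the QuantSeq FWD kit. The authors trimmed reads, aligned them to hg38 with STAR, counted them per gene with featureCounts 2.0.1 on a GENCODE annotation and deposited the raw counts; the strand setting of the counting is not given in the sources used here. Groups and replicate numbers came from the labels.

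Here, genes with too few reads were removed (edgeR filterByExpr, minimum count 10, minimum total 15), counts were scaled by TMM, and 4 group means were fitted over all 12 libraries with the quasi-likelihood test of edgeR 4.0.16 (robust) in R 4.3.3. p-values were adjusted by Benjamini-Hochberg over all 11803 tested genes, with a threshold of 0.05. DESeq2 1.42.0, other scalings, other filters, a replicate block, fits of only the groups compared and fits without each library in turn were alternatives. The test was also run on simulated counts with the same spread for every gene and no deviating library, a setting simpler than these data. Totals of 3299119 to 5164667 reads limit precision for genes with few reads. Annotation came from GENCODE v44 and promoter windows from RefSeq.

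The 5 genes and the gene lists were chosen with earlier results of these data known, so the 5 genes carry no p-value. In each list, up to 3 genes per direction and comparison were named by size of change, among those past the threshold with a mean of at least 10 CPM in 1 of the groups and no overlap of libraries; other genes are named where their role bears on the 2 RNAs. The 44 rows without a gene name held 0 reads. Correlations are descriptions, with no p-value. 2 genes of the lists stay in the counts and medians but are not reported here by name.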

Additional observations from a re-analysis of the deposited data

Results flagged for a closer look

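The response to abemaciclib differed with and without fulvestrant, by the edgeR test of that difference (adjusted p under 0.05), for 11 of the 34 paraspeckle protein genes, 16 of the 32 tested nuclear speckle protein genes, 4 of the 18 tested maturation genes, 51 of the 327 tested long noncoding RNA genes and 6 of the 20 tested neighbours of MALAT1 and NEAT1. Over all genes 9.49% passed in the positive and 11.6% in the negative direction. In the same order of directions the shares were 23.5% and 8.82% for paraspeckle genes, 50% and 0% for speckle genes, 22.2% and 0% for maturation genes, 9.17% and 6.42% for long noncoding RNA genes and 10% and 20% for the neighbours, so that both long noncoding RNA shares were below those of all genes. Without fulvestrant replicate 3 these counts were 13, 19, 5, 70 and 8. The share of all genes passing in that fit was not computed, so nothing about the lists is read from the higher counts. Among the neighbours, KAT5 (0.64 ± 0.13) and TIGD3 (1.62 ± 0.47) had positive values, and FAM89B (−0.66 ± 0.14), FRMD8 (−0.64 ± 0.19) and CAPN1 (−1.01 ± 0.29) negative ones; CAPN1 lost its call in 1 and FRMD8 in 5 of 22 alternative fits. LINC01133 had the value −2.32 ± 0.24, and averaged 4.66, 18.7, 37.6 and 29.4 CPM with DMSO, abemaciclib, fulvestrant and the combination. No explanation of these differences was tested.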

How the results depend on the processing

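Of 535 values of the 5 genes under alternative settings, 526 moved by less than the replicate SD, 9 by more, and 0 changed the sign of a value larger than 2 SE. Upper-quartile scaling gave NONO −0.1975 for the combination against DMSO, where the median over all genes was 0.03789, against 0.01032 in the main fit. Raw library totals gave SFPQ −0.7788 and NONO −0.3691 with abemaciclib, and interactions of 0.5273 and 0.4252. The median over all genes moved too, to −0.06311 with abemaciclib and 0.0974 for the interaction, from 0.0004615 and −0.01268 in the main fit. Raw totals without mitochondrial transcripts, a setting chosen after seeing the data, gave SFPQ −0.9375 and NONO −0.157 for the combination against DMSO. The median over all genes was then 0.07856. Fits without 1 library gave interactions of −0.33 to −0.08559 for MALAT1 and −0.6121 to −0.1221 for NEAT1; the value nearest to 0 came without fulvestrant replicate 3 for MALAT1 and without combination replicate 1 for NEAT1.

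Of 571 list counts, 513 stayed within 1.5 times and 58 did not. For the combination against fulvestrant, long noncoding RNA calls were 2 by DESeq2, 3 with raw totals, 8 without a filter, 3 with a replicate block and 1 with only the groups compared, and neighbour calls were 1 with raw totals and with only the groups compared. Fitting only the groups compared gave 15 paraspeckle calls for the combination against abemaciclib. With at least 10 counts in every library, which left 152 of the 327 long noncoding RNA genes, calls were 59, 82, 93, 68, 0 and 32 over the 6 comparisons. Requiring a 2-fold change left 3, 4, 7, 0 and (interaction) 2 paraspeckle genes, 2, 6, 7, 0 and 1 speckle genes, 1, 5, 4, 2 and 0 maturation genes, 59, 98, 112, 43 and (combination against fulvestrant) 3 long noncoding RNA genes, and 2, 3, 3, 1, 0 and 2 neighbours. Neighbours within 100 kb gave 5, 2, 6, 3, 0 and 3 calls. That window holds fewer genes, so these counts are not on the same base as those within 300 kb. Fits without 1 library gave 4 to 6 maturation calls with abemaciclib and 7 to 10 speckle calls for the combination against abemaciclib; for the combination against fulvestrant they gave 0 to 3 paraspeckle, 0 to 1 speckle, 0 to 8 long noncoding RNA and 1 to 3 neighbour calls, the highest without fulvestrant replicate 3. The share of all genes passing was not computed for the 2-fold threshold or the other settings here. These counts therefore show how the lists depend on the setting, not how they compare with all genes. The causes of these moves were not tested. Of 131 calls of named list genes, 114 held in every alternative fit and 0 changed sign.

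Of 18 same-numbered pairs of libraries 6 had a correlation of deviations over 0.1, with a range of −0.395 to 0.223. Differently numbered pairs were not computed as a reference, so whether replicate numbers pair the libraries was not tested. The fit with a replicate block moved no list count by over 1.5 times except the long noncoding RNA calls above.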
